A study of Mus musculus with 16 samples.

Results

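The 9 genes described here make long-chain fatty acids longer or add double bonds to them. They are the elongases Elovl1, Elovl2, Elovl3 and Elovl5, the desaturases Fads1, Fads2, Fads3 and Fads6, and the stearoyl-CoA desaturase Scd2. They were chosen by gene symbol from 78317 listed genes, and all 9 passed the filter on low counts that left 14781 genes for testing. Their identifiers are ENSMUSG00000006390.16 (Elovl1), ENSMUSG00000021364.17 (Elovl2), ENSMUSG00000038754.6 (Elovl3), ENSMUSG00000032349.14 (Elovl5), ENSMUSG00000010663.6 (Fads1), ENSMUSG00000024665.9 (Fads2), ENSMUSG00000024664.6 (Fads3), ENSMUSG00000044788.11 (Fads6) and ENSMUSG00000025203.7 (Scd2). In the supplied GENCODE M21 annotation, chromosome 19 holds Elovl3, Fads1, Fads2, Fads3 and Scd2, and Elovl1, Elovl5, Fads6 and Elovl2 lie on chromosomes 4, 9, 11 and 13. Liver RNA came from wild-type C57BL/6J mice, an inbred laboratory strain, in 4 groups of 4: females and males on a normal chow with 4.5% of calories from fat, or on a diet with 60% of calories from fat. Every mouse arrived at 6 weeks of age and had its diet for 10 weeks. The diets came from 2 makers and may differ in other nutrients, and the labels do not say which mice shared a cage or at what hour tissue was taken. The comparisons ask how the high fat diet acts on liver RNA in each sex.

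Dietary linoleic and alpha-linolenic acid become arachidonic acid and docosahexaenoic acid (DHA) in the liver through alternating desaturation and elongation. Fads2, the delta-6 desaturase, opens the pathway, Elovl5 lengthens its product, Fads1, the delta-5 desaturase, acts next, and Elovl2 lengthens the longest polyunsaturated chains on the way to DHA. Elovl1 and Elovl3 work mainly on saturated and monounsaturated chains, which end up in sphingolipids and neutral lipids. Elovl3 is known as a liver gene with a male bias and a daily rhythm. Scd2 is a close relative of Scd1, the main stearoyl-CoA desaturase of adult liver. Fads3 has been linked to desaturation of sphingoid bases, and Fads6 is less well described.

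Libraries held between 22228115 and 41420589 expected counts, and the 9 genes took between 0.141% and 0.379% of them. Xist and 4 Y-linked genes matched the recorded sex in all 16 libraries. The labels list each library as a replicate but do not state that each came from its own mouse, so the p-values measure the spread between these samples, which may be technical. Male high fat diet replicates 2 and 3 stood closest together: a chi-square statistic per gene was 4.07 between them, where 1 is the value of sampling noise, and at least 20.8 in each other pair within a group. They were counted as 2 samples. For the other 2 libraries of that group, replicates 1 and 4, several of the genes below were lower. For the genes named below, values without replicates 2 and 3, a setting added after the data were seen, are given where they change a call or move a called value by over 1.5 times, and beside the main calls that rest on this group. It keeps replicates 1 and 4 alone, the lower libraries for several of these genes. For the 9 genes only, the values with replicates 2 and 3 summed into 1 sample are given where they change a call. Calls of other genes were not examined with these libraries summed. The defining hepatocyte markers were present in all libraries, and their summed level was lower on the high fat diet in both sexes, 79170 to 96300 against 101700 to 115300 in females and 52390 to 73560 against 82090 to 92250 in males, in CPM, the count of a gene relative to the scaled size of its library. Albumin (Alb) was the main contributor to the hepatocyte sums, with a mean of 2088000 expected counts, and Apoa1 was next at 163300. The other hepatocyte markers were not summed apart. By replicate, 1 to 4, the hepatocyte sums of the male high fat diet group were 52390, 72480, 73560 and 53370 CPM. Albumin alone took 3.73%, 5.91%, 5.84% and 4.01% of counts in these libraries. The cholangiocyte marker sums of the same group were 90.1, 54.0, 49.0 and 85.9 CPM. The part of these differences in the values without replicates 2 and 3 was not tested. In whole liver, fewer cells of a type and less RNA per cell cannot be told apart.

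Promoter sequence of 6 of the 9 genes was matched by symbol in a RefSeq table (build GRCm38.p6): Elovl1, Elovl2, Elovl5, Fads2, Fads3 and Fads6. The 250 bases upstream of the annotated start are shown for Elovl5 and Fads2, the first elongase and the first desaturase of the polyunsaturated pathway, read 5′ to 3′ on the strand of the gene. The Elovl5 stretch is chr9:77917115-77917364 on the plus strand and the Fads2 stretch is chr19:10101504-10101753 on the minus strand. Capitals mark matches to any of 5 motifs searched on both strands: the sterol regulatory element TCACNCCAC, the E-box CACGTG, the CCAAT box CCAAT, and direct repeats of AGGTCA with a spacer of 1 base (DR1) or 4 bases (DR4).
Elovl5: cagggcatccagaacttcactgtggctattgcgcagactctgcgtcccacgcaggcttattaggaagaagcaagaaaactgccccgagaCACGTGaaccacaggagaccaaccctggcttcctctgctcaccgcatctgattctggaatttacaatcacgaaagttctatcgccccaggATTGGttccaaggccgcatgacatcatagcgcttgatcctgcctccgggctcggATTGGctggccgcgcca
Fads2: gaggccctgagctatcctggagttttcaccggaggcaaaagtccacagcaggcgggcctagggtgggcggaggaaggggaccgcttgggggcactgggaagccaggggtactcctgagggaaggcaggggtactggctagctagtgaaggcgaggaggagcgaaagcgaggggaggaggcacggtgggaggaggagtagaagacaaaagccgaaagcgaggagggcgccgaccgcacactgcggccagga
The Elovl5 stretch held an E-box starting at -161 from the start and a CCAAT box on the other strand at -71 and at -17. An E-box was in 6.02% of all 32851 windows of this length, and a CCAAT box in 33.8%. None of the 5 motifs was in the Fads2 stretch. The first Elovl1 window held a CCAAT box at -35 and the Fads3 window held 1 on each strand, at -106 and -78. The sterol regulatory element was in 1.05% of all windows, DR1 in 0.0335% and DR4 in 0.0152%, and none of them was in a window of these 6 genes. A match describes letters only.

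Levels of different genes were compared in TPM, a transcript share that is divided by gene length. In females on the normal diet the mean TPM was 325 for Fads2, 229.8 for Fads1, 216 for Elovl2 and 185 for Elovl5, and neighbours in that order overlapped between libraries. The same 4 genes led in the other groups, at 268 to 305 TPM in females on the high fat diet, 113 to 269 TPM in males on the normal diet and 129 to 199 TPM in males on the high fat diet. Below them stood Fads6 (26.3 to 35.3 TPM as a group mean) and Elovl1 (19.9 to 25.9 TPM). Scd2 was at 1.37 to 2.01 TPM and Fads3 at 0.835 to 1.17 TPM, the lowest levels of the 9. The order among the leading 4 genes differed between groups, with overlapping libraries. Elovl3 moved across genes that it did not overlap: it ranked below Elovl1 in both female groups and above Fads6 in both male groups, in each case with no overlap between libraries of those 2 genes.

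**Figure D1:**
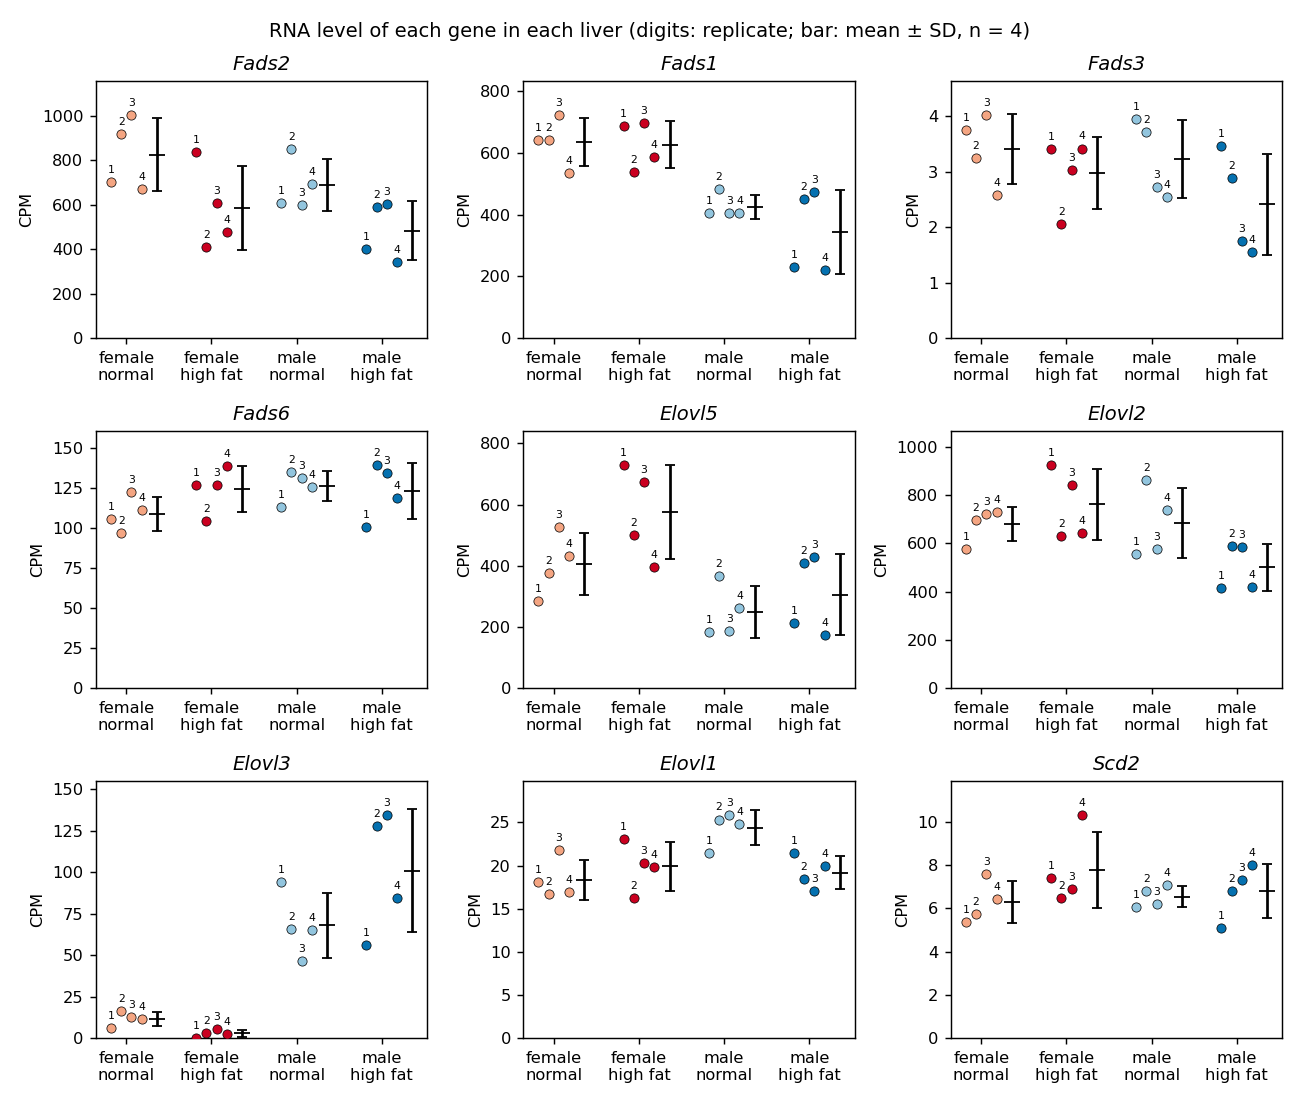
Level of each of the 9 genes in every library, in CPM, with 1 panel per gene and replicate points in the 4 groups. Elovl3 is lowest in females on the high fat diet (0.453 to 5.68 CPM) and is at 46.7 to 134.7 CPM in males.

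Of the 9 genes, 1 was called in the female diet comparison, where 11.5% of all genes were called (5.74% up with the high fat diet and 5.76% down), and none in males, where 11.4% were (6.03% higher and 5.36% lower). A call is an adjusted p under 0.05 in edgeR's quasi-likelihood test. In females 2 of the 9 had an unadjusted p under 0.05 in edgeR, both lower on the high fat diet. In males 3 had an unadjusted p under 0.05 in edgeR, all lower on the high fat diet, and DESeq2 called 1. For the difference of diet effects between the sexes none was called, against 0.677% of all genes (0.264% higher and 0.413% lower), and 3 had an unadjusted p under 0.05. The share of all genes at that unadjusted cut-off was not counted. The shares of called genes are therefore no background for the unadjusted counts. Females against males gave 2 calls on the normal diet, both lower in females, where 15.7% of all genes were called (7.03% above males and 8.68% below). On the high fat diet 3 were called, 2 higher and 1 lower in females, where 20.4% of all genes were (8.84% higher and 11.6% lower). The median log2 fold change of the 9 was 0.12 in females and -0.31 in males for diet, with medians of 0.00 and 0.01 over all tested genes. As shares of the 9 genes, the calls were 11.1% for diet in females, 22.2% for sex on the normal diet and 33.3% for sex on the high fat diet, so the diet count in females stood at the share of all genes.

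**Figure D2:**
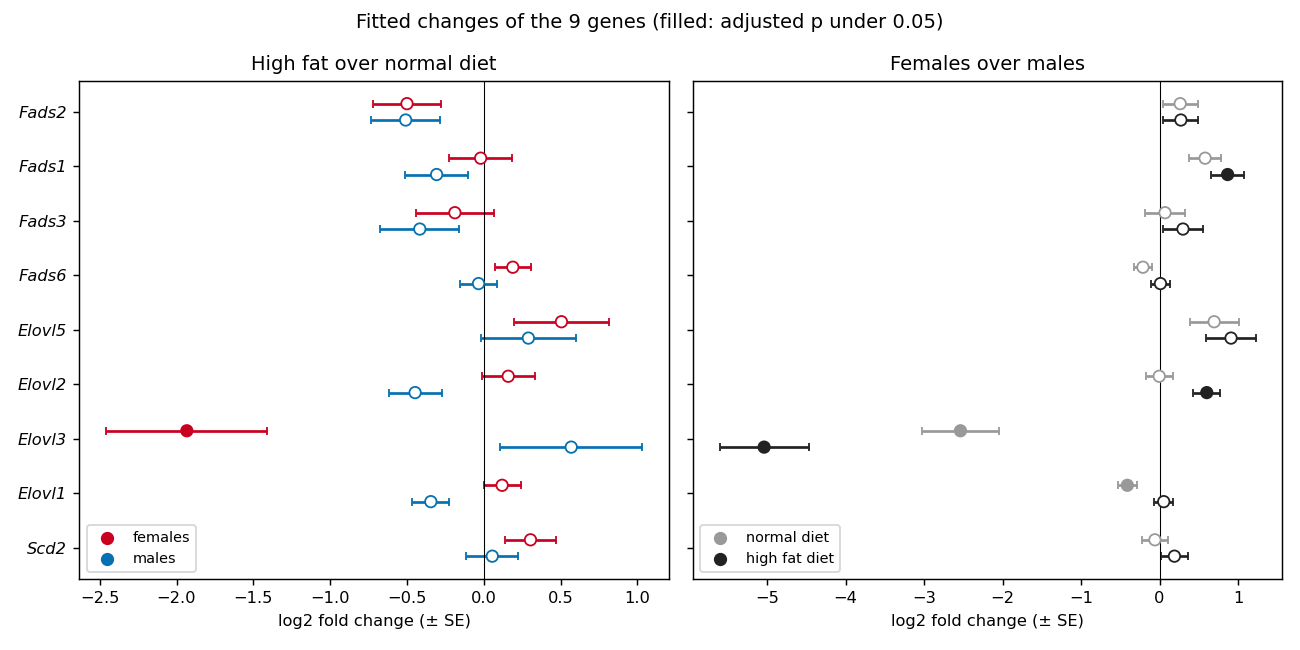
Log2 fold change of each of the 9 genes in the edgeR comparisons, with bars of 1 standard error. Elovl3 reaches -1.93 for diet in females and -5.04 for females against males on the high fat diet, and the other genes lie between -0.51 and 0.91.

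Elovl3 was the gene that differed most between groups. In females it had 6.34, 16.2, 12.6 and 11.6 CPM on the normal diet (replicates 1 to 4), and 0.453, 3.54, 5.68 and 2.75 CPM on the high fat diet. All 4 high fat diet females lay below all 4 normal diet females, and replicate 1 of the high fat diet had only 15 expected counts. In males the values were 94.3, 66.0, 46.7 and 65.4 CPM on the normal diet and 56.6, 128, 135 and 84.8 CPM on the high fat diet, and these groups overlapped. In the female diet comparison Elovl3 fell by 1.93 ± 0.52 on the log2 scale (standard error; adjusted p = 0.0323, edgeR's quasi-likelihood test with Benjamini-Hochberg adjustment over all tested genes, as in each adjusted p below unless another tool is named). In males its log2 fold change was 0.57 ± 0.46 (adjusted p = 0.466, 95% interval -0.43 to 1.57). The female change minus the male change was -2.50 ± 0.70 with an unadjusted p of 0.00336 in edgeR's test, but the adjusted p was 0.141, so a difference between the sexes in the diet response was not called. Females were below males without overlap on both diets. The log2 difference, females minus males, was -2.54 ± 0.49 on the normal diet (adjusted p = 0.00457) and -5.04 ± 0.57 on the high fat diet (adjusted p = 7.1e-05). Without male high fat diet replicates 2 and 3 the latter was -4.52, adjusted p = 0.00043 in edgeR's test.

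The call in females depended on the setting. Leaving out female high fat diet replicate 2 or 4, or normal diet replicate 2, 3 or 4, raised its edgeR adjusted p to between 0.0567 and 0.0883, and over the alternatives the log2 fold change stayed between -2.40 and -1.48. Without a filter on low counts the adjusted p was 0.0744, and with only the 2 groups compared it was 0.0859. Macrophage markers moved with the diet in the same females: 5 of 11 were called higher, and their summed level was 395.6 to 599 CPM against 237.5 to 349.5 CPM. Of 8 hepatic stellate cell markers 3 were called higher in these females, with summed levels of 360.2 to 403 CPM against 360.5 to 394 CPM. None of these 8 was called in males, where the sums were 313 to 401 CPM against 245.9 to 306 CPM, without overlap. In males 4 of the 11 macrophage markers were called higher on the high fat diet, with sums of 202.5 to 408 CPM against 219.6 to 345 CPM. The part of these cells in the diet changes of the 9 genes was not tested. Adipocyte markers summed to 1.41 to 15.1 CPM in males on the high fat diet, against at most 3.92 CPM in the other groups, and by replicate the sums were 1.41, 15.1, 14.8 and 9.96 CPM, in which Cfd and Cidea were the main contributors. Of the 7 adipocyte markers 3 were tested and 2 were called higher in males on the high fat diet than on the normal diet. Lep was at 0 in females on the high fat diet and Ucp1 in males on the normal diet, and Adipoq was at 0.409 to 1.46 CPM in males on the high fat diet. Elovl3 is also expressed in fat tissue, and the part of adipocyte RNA in its male values was not tested. Without male replicates 2 and 3 the male log2 fold change was 0.05 (adjusted p = 0.974). Elovl3 overlaps Pitx3 on the opposite strand in the supplied annotation, and Pitx3 had at most 0.584 CPM. Whether counting used the strand is not given in the sources used here.

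Across the 16 libraries the genes with the pattern most like that of Elovl3 were Susd4, Slco1a1, a transporter of organic anions, and Mup19, a major urinary protein. Likeness is the root mean square difference of log2 CPM after centring each gene, which was 0.847, 1.02 and 1.03 for these genes, where Elovl3 itself varied by 2.27 around its mean. Susd4 had group means of 2.09 and 0.638 CPM in females on the normal and high fat diet and 30.9 and 19.2 CPM in males. Slco1a1 had 168 and 18.7 CPM in the female groups and 696 and 525 CPM in males.

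Elovl1, the other elongase of saturated chains, differed far less. On the normal diet females had 18.1, 16.7, 21.8 and 16.9 CPM, and males had 21.4, 25.3, 25.9 and 24.8 CPM. Female replicate 3 reached above the lowest male, so the groups overlapped. The log2 difference, females minus males, was -0.41 ± 0.12 (edgeR adjusted p = 0.0267). This call was lost in 9 of the alternatives, which left out female normal diet replicate 1, 2 or 4 or male normal diet replicate 2, 3 or 4, dropped the filter (0.0584) or used limma on log2 TPM with a pseudocount of 1 (0.112) or 0.1 (0.107). On the high fat diet females had 23.1, 16.3, 20.3 and 19.9 CPM and males 21.5, 18.4, 17.0 and 19.9 CPM, with no call (0.05 ± 0.12, adjusted p = 0.782). Elovl1 shares exon sequence on the opposite strand with Cdc20, which had 0.165 to 0.942 CPM. Its male diet change of -0.34 ± 0.12 had an adjusted p of 0.0704, and 0.0457 by DESeq2. For Elovl1 the difference of diet effects between the sexes was 0.46 ± 0.17 (edgeR adjusted p = 0.253) and was not called.

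The ratio of Elovl3 to Elovl1 within a liver does not depend on library scaling. In TPM it was 0.240, 0.712, 0.402 and 0.462 in females on the normal diet and 0.0149, 0.159, 0.188 and 0.0953 on the high fat diet. In males it was 2.99, 1.69, 1.22 and 1.94 on the normal diet and 1.76, 5, 5.49 and 3.11 on the high fat diet. The log2 ratio was lower on the high fat diet in females (-2.39 ± 0.90) without overlap, with an exact two-sided permutation p of 0.0286. No split of 4 against 4 can give a smaller p, and adjustment over the 16 ratio tests raised it to 0.0653. None of the 16 passed 0.05 after that adjustment.

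Fads1, the delta-5 desaturase, was higher in females on the high fat diet than in males. Its CPM in females was 642, 643, 725 and 537 on the normal diet and 688, 539, 697 and 587 on the high fat diet. In males it was 407, 485, 406 and 405 on the normal diet and 230.3, 451, 472 and 222 on the high fat diet. Females lay above males without overlap on both diets. The difference was called on the high fat diet (0.87 ± 0.21, edgeR adjusted p = 0.00768) and not on the normal diet (0.58 ± 0.21, adjusted p = 0.0642), where a fit of the 2 groups alone (edgeR adjusted p = 0.00402) and DESeq2 (adjusted p = 0.0358) made the call. Diet had no called effect in females (-0.02 ± 0.21, 95% interval -0.45 to 0.41, adjusted p = 0.965) or males (-0.31 ± 0.21, adjusted p = 0.36), and in TPM the female value turned to the other sign (0.23). With all libraries the difference of diet effects between the sexes was 0.29 ± 0.29 (edgeR adjusted p = 0.731) and was not called. The high fat diet males fell into 2 pairs, replicates 2 and 3 inside the normal diet range and replicates 1 and 4 below all of it. Without replicates 2 and 3 the male change was -0.91 (edgeR adjusted p = 0.00155), the difference of diet effects between the sexes was 0.89 (adjusted p = 0.0319), the sex difference on the high fat diet was 1.47 (adjusted p = 5.79e-06) and that on the normal diet was called as well (adjusted p = 0.00313). With replicates 2 and 3 summed, the male change was -0.48 (adjusted p = 0.164) and the sex difference on the normal diet had an adjusted p of 0.0458.

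Fads2 CPM in females was 703, 919.7, 1005 and 673 on the normal diet and 837, 409, 609 and 479 on the high fat diet. In males it was 608, 852, 599 and 692 on the normal diet and 401, 589.7, 602 and 341 on the high fat diet. The diet groups overlapped in both sexes. The log2 fold changes were -0.50 ± 0.22 in females (edgeR adjusted p = 0.157) and -0.51 ± 0.22 in males (adjusted p = 0.15). Leaving out female high fat diet replicate 1, the highest of its group, gave -0.73 and an adjusted p of 0.0447 in females. Without male high fat diet replicates 2 and 3 the male change was -0.89 (adjusted p = 0.0422). The ratio of Fads1 to Fads2 in TPM was 0.840, 0.640, 0.663 and 0.732 in females on the normal diet and 0.764, 1.21, 1.05 and 1.12 on the high fat diet, and 0.523 to 0.718 in males over both diets. Females exceeded males without overlap on the normal diet (0.32 ± 0.11) and the high fat diet (0.69 ± 0.18), each with exact permutation p = 0.0286 and 0.0653 after adjustment. Within females, the high fat diet minus normal diet difference was 0.52 ± 0.17 (exact permutation p = 0.0571, adjusted 0.0914), and replicate 1 of the high fat diet overlapped the normal diet group.

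Macrophage markers also moved with sex on the high fat diet: 4 of 11 were called higher in females, with overlapping summed levels of 395.6 to 599 CPM against 202.5 to 408 CPM, and so were 2 of 6 tested T and B cell markers, while of 5 tested cholangiocyte markers 2 were higher and 1 was lower. Summed hepatocyte markers on that diet were 79170 to 96300 CPM in females against 52390 to 73560 CPM in males, without overlap. Albumin was the main contributor to these sums, at 7.39% to 8.75% of counts in these females and 3.73% to 5.91% in these males. Of the 6 hepatocyte markers, 1 was called higher in females and 1 lower. The part of all these cell types in the sex differences of Fads1 and Elovl2 was not tested.

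Elovl2, the elongase nearest to DHA, was higher in females than in males on the high fat diet. On that diet females had 926, 632, 842 and 644 CPM and males 415, 588, 584 and 418 CPM, with no overlap. The difference was 0.60 ± 0.17 (edgeR adjusted p = 0.0201; 0.87, adjusted p = 0.00593 without male high fat diet replicates 2 and 3), and the adjusted p rose to 0.0658 without female high fat diet replicate 1 and to 0.0705 without male high fat diet replicate 4. On the normal diet, with 578, 697, 722 and 729 CPM in females and 557, 861, 578 and 739 CPM in males, the 95% interval of the difference was -0.36 to 0.36. The male diet change was -0.45 ± 0.17 (adjusted p = 0.1), and -0.72 with an adjusted p of 0.0327 without male high fat diet replicates 2 and 3. In females the diet change was 0.16 ± 0.17 (adjusted p = 0.589). The difference of diet effects between the sexes was 0.61 ± 0.24 (edgeR adjusted p = 0.295) and was not called.

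Elovl5 CPM in females was 285, 377, 526 and 433 on the normal diet and 730.5, 502, 673 and 396 on the high fat diet. In males it was 185, 367, 188 and 261 on the normal diet and 213, 409, 429 and 173 on the high fat diet. No comparison of this gene was called by edgeR, and the libraries of both groups overlapped in each comparison of 2 groups. The nearest was females against males on the high fat diet, at 0.91 ± 0.31 with an adjusted p of 0.0517, which was under 0.05 in 9 of 17 alternatives. With male high fat diet replicates 2 and 3 summed it was 1.12 (adjusted p = 0.0338). Without them it was 1.58 (adjusted p = 0.00435), and the male diet change went from 0.29 ± 0.31 to -0.38 (adjusted p = 0.505), the opposite sign. The pattern most like that of Elovl5 was that of Abhd2, a lipid hydrolase (root mean square difference 0.281, where Elovl5 varied by 0.632), with 188 and 262 CPM in females on the normal and high fat diet and 119 and 143 CPM in males. Snai2 and Kcnk10 came next, at 0.348 and 0.352. The ratio of Elovl2 to Elovl5 in TPM was 1.42, 1.29, 0.961 and 1.18 in females and 2.11, 1.65, 2.16 and 1.98 in males on the normal diet, where females were lower without overlap (-0.71 ± 0.15, exact permutation p = 0.0286, adjusted 0.0653).

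**Figure D3:**
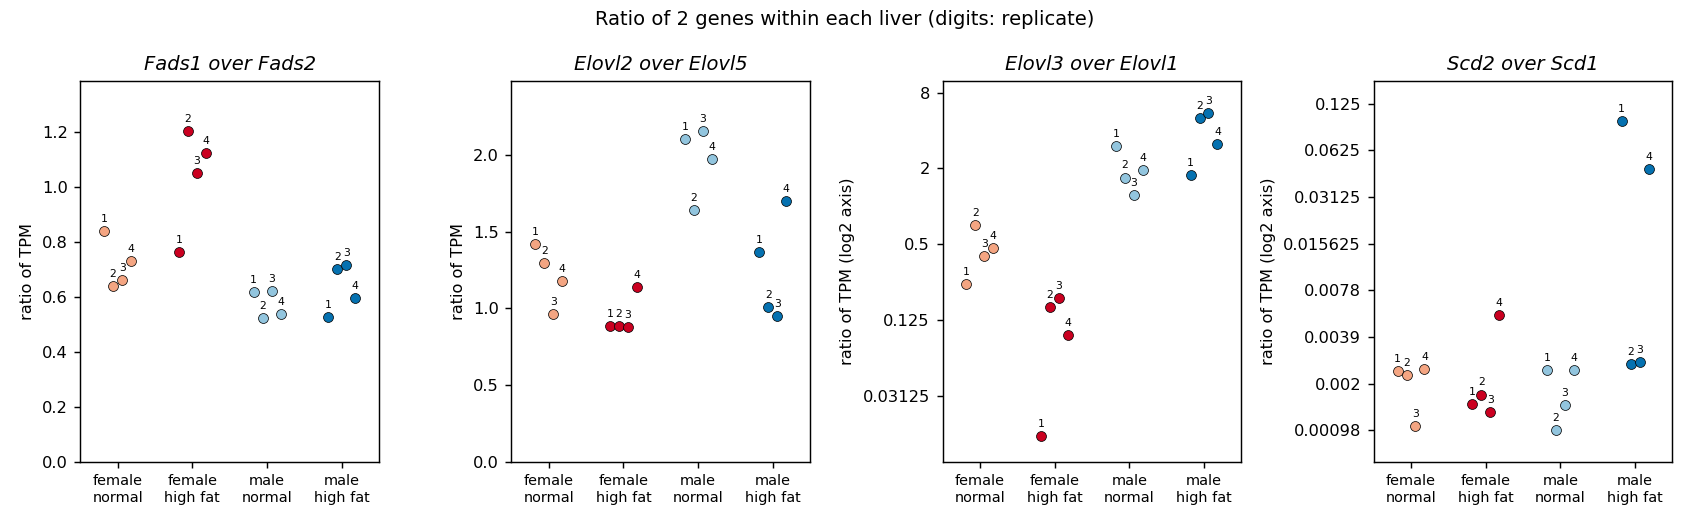
Ratio of TPM between 2 genes in every liver, on a linear axis for Fads1 over Fads2 and Elovl2 over Elovl5 and a log2 axis for the other pairs, with the replicate number above each point. Scd2 over Scd1 is 0.097 and 0.0476 in male high fat diet replicates 1 and 4 and at most 0.0054 in the other 14 libraries.

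The low-level genes Fads3 and Scd2 and the gene Fads6 had no called comparison. Fads6 ranged from 96.6 to 139.4 CPM over all libraries, and its diet changes were 0.19 ± 0.12 in females (edgeR adjusted p = 0.318) and -0.03 ± 0.12 in males (adjusted p = 0.889). In females limma on log2 TPM (pseudocount of 1) gave Fads6 0.42 with an adjusted p of 0.0375, a scale on which all genes had a median shift of 0.149 in females. Fads3 ranged from 1.55 to 4.03 CPM, from 35 to 130 expected counts, and shares 0.127% of its 50-base stretches with Fads2. Scd2 ranged from 5.09 to 10.3 CPM and overlaps Mir5114. Of its 50-base stretches, 3.97% occur in other genes, among them Scd1, whose level was far higher. A small share of Scd1 reads assigned to Scd2 could weigh on its count, so the level of Scd2 is uncertain by an amount not measured here. The ratio of Scd2 to Scd1 was 0.00238, 0.000980, 0.00142 and 0.00238 in males on the normal diet and 0.0970, 0.00261, 0.00268 and 0.0476 on the high fat diet. Scd1 itself had 2240, 6089, 3834 and 2617 CPM and 46.2, 2294, 2403 and 148 CPM in those groups, and its diet change of -1.60 ± 0.95 was not called (adjusted p = 0.301). Replicates 1 and 4 had the lowest Scd1 of the 16 libraries and the highest ratios, and their Scd2 was at 5.09 and 8.01 CPM. The male difference of the log2 ratio was 3.00 ± 1.40 without overlap (exact permutation p = 0.0286, adjusted 0.0653). Without replicates 2 and 3 the Scd1 diet change in males was -5.25 (edgeR adjusted p = 0.00443) and its difference of diet effects between the sexes was called (5.39, adjusted p = 0.0292).

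The partners of the elongases form the rest of the cycle that adds carbon pairs to a chain. Of 6 tested partners, 2 fell in females on the high fat diet, and 2 others in males. Among all genes, 5.76% were called lower in females and 5.36% in males. The difference of diet effects between the sexes was called for 0 of the 6 partners. Hacd2, a dehydratase of the cycle, went from 61.1 ± 1.28 to 41.7 ± 2.53 CPM (SD, n = 4) in females, without overlap (-0.55 ± 0.09, edgeR adjusted p = 0.000573), and Hsd17b12, the ketoreductase, changed by -0.45 ± 0.11 (adjusted p = 0.0179). In males Tecr, the enoyl reductase, went from 101.4 ± 9.48 to 74.6 ± 10.6 CPM (-0.44 ± 0.10, adjusted p = 0.00961), and Hacd1 changed by -0.72 ± 0.21 (adjusted p = 0.0309). Without male high fat diet replicates 2 and 3 the call for Tecr held (-0.63, adjusted p = 0.00275) and that for Hacd1 was lost (-0.44, adjusted p = 0.26). In females the Tecr diet change was -0.31 ± 0.10 (adjusted p = 0.0597), and it was called in that setting (-0.31, adjusted p = 0.0337). Of the other elongases, Elovl6 and Elovl7 were tested and, with all libraries, edgeR called neither in any comparison. Elovl6, the elongase that makes stearate from palmitate, had -0.70 ± 0.33 in females (adjusted p = 0.184) and -0.65 ± 0.33 in males (adjusted p = 0.219), and without male high fat diet replicates 2 and 3 the male change was -1.38 (adjusted p = 0.0205) and females were above males on the high fat diet (1.21, adjusted p = 0.02). Of 6 tested electron donors of the desaturases, Cyb5r1 fell in males (-0.86 ± 0.25, adjusted p = 0.0324, or 0.189 without those libraries) and none was called for diet in females. Without those libraries Cyb5b was called for diet in males (-0.78, adjusted p = 0.02), against -0.33 ± 0.20 (adjusted p = 0.291) with them.

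Among 14 regulators of fatty acid synthesis and desaturation, the clearest diet changes were in the Insig genes, whose proteins hold the SREBP precursors in the endoplasmic reticulum. Insig1 had 359, 301, 325 and 307 CPM in females on the normal diet and 210.5, 210.4, 225 and 215 CPM on the high fat diet. In males it had 267, 247, 316 and 265 CPM and 81.0, 93.4, 88.0 and 85.8 CPM. It fell without overlap in both sexes, by 0.58 in females (edgeR adjusted p = 0.00119) and by 1.65 in males (adjusted p = 1.71e-08; -1.72, adjusted p = 9.93e-07 without male high fat diet replicates 2 and 3), and the difference between these changes was called (1.07 ± 0.14, adjusted p = 0.0011). Insig2 rose in males, from 115 ± 23.3 to 294 ± 93.4 CPM (1.35 ± 0.23, adjusted p = 0.0015), and its interaction was called too (-1.64 ± 0.33, adjusted p = 0.0251). Without male high fat diet replicates 2 and 3 the Insig2 rise was 0.92 (adjusted p = 0.0258) and its interaction was no longer called (-1.21, adjusted p = 0.0913), while the Insig1 interaction was 1.13 (adjusted p = 0.00227). Srebf2 fell in females (-0.42 ± 0.13, adjusted p = 0.0448), and the adjusted p was 0.0515 in that setting. Srebf1, which encodes the activator of lipogenic genes, was not called in females (0.46 ± 0.31, adjusted p = 0.361) or males (0.56 ± 0.31, adjusted p = 0.26), nor were Mlxipl, Ppara and Nr1h3 in either diet comparison.

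In the list of genes that activate and incorporate polyunsaturated fatty acids, 3 of 9 tested fell in females and none was called in males. Among all genes, 5.76% were called lower in females. The difference of diet effects between the sexes was called for 1 of the 9. When male high fat diet replicates 2 and 3 were left out, 3 were called in males in edgeR's test: Acsl5 (-0.59, adjusted p = 0.023), Mboat7 (-0.50, adjusted p = 0.0225) and Lpgat1 (0.84, adjusted p = 0.0183). Mfsd2a, a transporter of DHA in lysophospholipid form, had 83.8, 102, 102 and 126 CPM in females on the normal diet and 33.8, 32.2, 21.7 and 18.1 CPM on the high fat diet, without overlap (-1.97 ± 0.26, edgeR adjusted p = 0.000283). In males it had 38.8, 49.3, 35.2 and 36.2 CPM and 31.9, 65.0, 69.1 and 34.7 CPM, and the difference of diet effects was called (-2.30 ± 0.36, adjusted p = 0.00629; -1.71, adjusted p = 0.00971 without male high fat diet replicates 2 and 3). Acsl4, an acyl-CoA synthetase that favours arachidonic acid, went from 105 ± 10.8 to 54.5 ± 9.60 CPM in females (-0.95 ± 0.15, adjusted p = 0.000762), and Acsl3 changed by -0.45 ± 0.14 (adjusted p = 0.0454). Between the sexes on the normal diet, Abcd2, a peroxisomal fatty acid transporter, stood at 144 ± 6.17 CPM in females against 16.1 ± 7.38 CPM in males (3.16 ± 0.65, adjusted p = 0.00629), and Scp2, a peroxisomal thiolase and lipid carrier, was lower in females (-1.01 ± 0.11, adjusted p = 1.06e-05). Of 5 tested ceramide synthesis genes, Cers6 was higher in females on the normal diet (0.76, adjusted p = 0.0143) and the high fat diet (0.57, adjusted p = 0.0478; 0.87, adjusted p = 0.0165 without male high fat diet replicates 2 and 3).

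Between the sexes on the normal diet, Hacd2 (0.30 ± 0.09, edgeR adjusted p = 0.0243), the electron donor Cyb5a (0.50 ± 0.15, adjusted p = 0.033) and Nr1h3, the gene of liver X receptor alpha (0.35 ± 0.09, adjusted p = 0.0182), were higher in females, and each was the only call in its list. Cyb5r1 was called there as well when male high fat diet replicates 2 and 3 were left out (-0.60, adjusted p = 0.0134). Among activation and incorporation genes Mfsd2a was higher in females (1.38 ± 0.26, adjusted p = 0.00236) and Acsl1, an acyl-CoA synthetase, was lower (-0.86 ± 0.23, adjusted p = 0.0163). On the high fat diet Tecr was higher in females (0.31 ± 0.10, adjusted p = 0.0372; 0.50, adjusted p = 0.0053 without those libraries) and Hsd17b12 lower (-0.71 ± 0.11, adjusted p = 0.000455). Of the 14 regulators 3 were higher in females on that diet and 2 lower, among them Insig1 (1.31 ± 0.10, adjusted p = 9.23e-08), Insig2 (-1.29 ± 0.23, adjusted p = 0.00135) and Mbtps2, a protease that activates SREBP (-0.52 ± 0.16, adjusted p = 0.0251). Of 9 activation and incorporation genes 2 were higher in females and 4 lower, among them Acsl4 (-0.77 ± 0.15, adjusted p = 0.00204), Acsl1 (-0.83 ± 0.23, adjusted p = 0.0166), Lpgat1 (-0.85 ± 0.24, adjusted p = 0.0185; -1.25, adjusted p = 0.00048 without those libraries) and Mfsd2a (-0.92 ± 0.26, adjusted p = 0.0193). Without male high fat diet replicates 2 and 3, Mbtps2 (-0.55, adjusted p = 0.0616), Acsl1 (-0.51, adjusted p = 0.187) and Mfsd2a (-0.33, adjusted p = 0.331) were no longer called on that diet, while Hacd3 (-0.47, adjusted p = 0.0158), Cyb5b (0.61, adjusted p = 0.0353) and Scd1 (5.20, adjusted p = 0.00177) gained a call. In that setting the calls held for Insig1 (1.37, edgeR adjusted p = 1.68e-06), Insig2 (-0.87, adjusted p = 0.0191), Hsd17b12 (-0.73, adjusted p = 0.002) and Acsl4 (-0.85, adjusted p = 0.00478). Of the peroxisomal genes, Abcd2 was higher in females on the high fat diet (2.40 ± 0.63, adjusted p = 0.0175, and 4.61, adjusted p = 4.89e-06 without those libraries). The Abcd2 diet change in males was called without those libraries (-1.50, edgeR adjusted p = 0.0211) and not with all libraries. Scp2 was lower in females on the high fat diet (-0.93 ± 0.11, adjusted p = 2.29e-05; -0.93, adjusted p = 0.000101 without those libraries).

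The median log2 fold change for diet was -0.38 in females and -0.11 in males for the partners of the elongases, -0.06 in females and -0.01 in males for the regulators, and -0.23 in females and -0.14 in males for activation and incorporation, where the medians over all tested genes were 0.00 and 0.01.

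**Figure D4:**
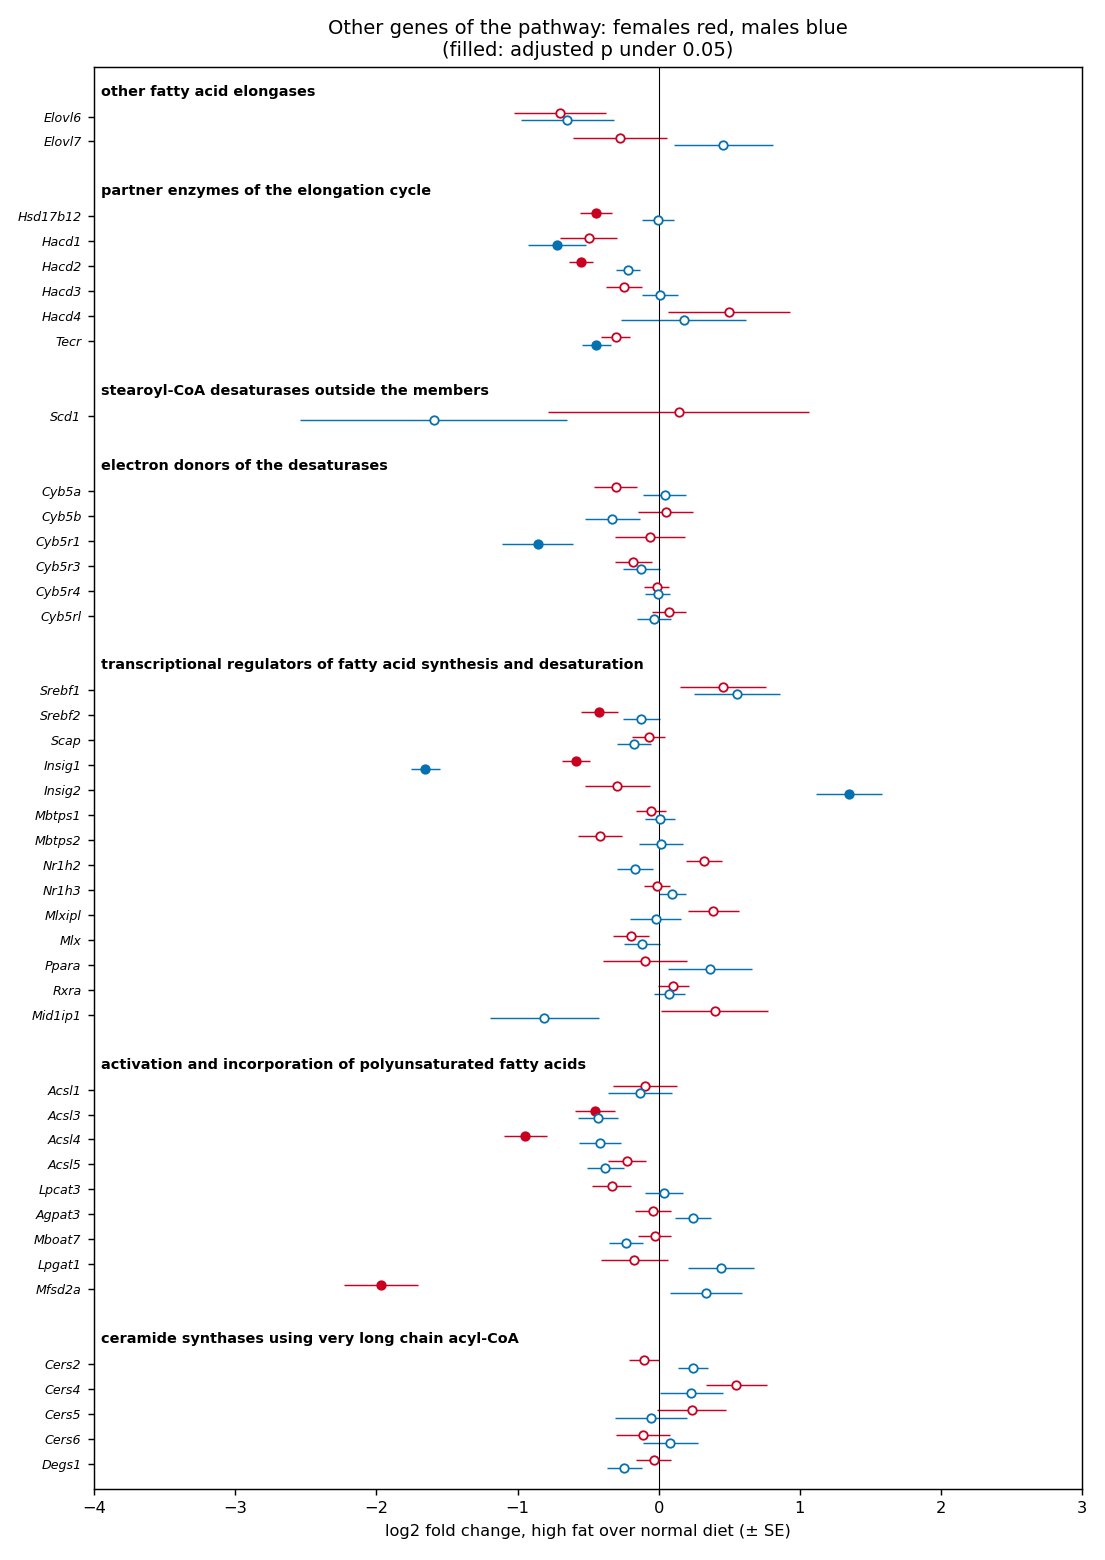
Log2 fold changes of genes of the pathway lists in edgeR's diet comparisons, by list, with females in red, males in blue, calls filled and bars of 1 standard error. Insig1 in males (-1.65) and Mfsd2a in females (-1.97) are the lowest filled points.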

How the data were processed

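Poly(A) RNA of whole mouse liver was sequenced in 16 libraries, per the labels. STAR, RSEM and the build GRCm39 are named in the submitters' processing notes, without versions. The authors deposited RSEM expected counts and TPM per gene, and TPM divides each gene by its effective length. Symbols were matched by Ensembl identifier for 51487 of 78317 genes, which hold 98.97% of counts. Deposited expected counts were rounded, filtered with filterByExpr (14781 genes kept, 99.94% of counts), scaled by TMM and tested with edgeR 4.0.16 (R 4.3.3) by the robust quasi-likelihood test, with 1 mean per group over all 16 libraries. A gene was called at a Benjamini-Hochberg adjusted p under 0.05. CPM is relative to TMM-scaled library size. Ratios of TPM were tested by exact permutation with Python 3.11.15. The procedure was tested on simulated data. limma 3.58.1, DESeq2 1.42.0 and other settings were alternatives.

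The members, gene lists and tests were chosen with earlier results of these data known. Named genes are the 9 members, list genes called in a comparison (at most 4 per list and comparison), Srebf1, Nr1h3, Mlxipl, Ppara, Insig1, Insig2, Scd1 and Elovl6, and the 3 genes most like a member whose group means span at least 1 on the log2 scale. Some that the rule takes are given only by count. Protein sequences were not analysed here, and some genes of the lists are not reported here.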

Additional observations from a re-analysis of the deposited data

Results flagged for a closer look

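For each of the 9 genes (TPM) and the 4 ratios, the 4 libraries of each group were checked for a library far from the other 3, by the gap to the nearest library over the whole range (Dixon's test at the 95% level). Of 52 groups, 3 exceeded the critical value, and chance flags about 1 group in 20. The ratio of Elovl2 to Elovl5 in females on the high fat diet was 1.141 in replicate 4, above 0.877 to 0.888 in the other 3 (gap over range 0.958). In the same library the ratio of Scd2 to Scd1 was 0.005402, the highest of its group (0.907), with the group's lowest Scd1, 1683 CPM, and highest Scd2, 10.3 CPM. In females on the normal diet the ratio of Scd2 to Scd1 was lowest in replicate 3, at 0.001048 (0.864), with the group's highest Scd1, 6357 CPM.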

How the results depend on the processing

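The calls for Elovl3 between the sexes on both diets and for Fads1 on the high fat diet held in all 17 alternatives each, with adjusted p at most 0.017, 0.00502 and 0.0415. Among values of single genes and ratios, 903 alternatives stayed the same, 44 tested ones changed sign, 23 gained a call, 18 lost one and 2 moved. For tested values, the same means an unchanged direction and side of the threshold. For untested log2 ratios of group mean levels, with CPM in place of TPM, it means a difference below the larger SD of log2 TPM of the 2 groups. The sign could turn there, as for Fads3 in females (0.0535 in TPM, -0.192 in CPM) and Fads6 in males (0.04 and -0.0342). Those that moved were such ratios, for Fads1 and Fads6 in females. The cause was not tested.

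Members called for diet in females numbered 0 without the filter (1260 of all genes), 0 in a fit of the 2 diet groups alone (1439), and 2 with limma on log2 TPM with a pseudocount of 1 or 0.1. On that scale 2970 and 2812 genes were called in females, with 2684 higher and 286 lower, and 2525 higher and 287 lower, against 848 higher and 852 lower with edgeR. The median shift of all genes with a pseudocount of 1 was 0.149 for diet in females, 0.051 in males, 0.107 for the interaction, 0.004 between the sexes on the normal diet and 0.102 on the high fat diet. Members called between the sexes on the normal diet numbered 1 without the filter (1820 of all genes) and 1 with limma at either pseudocount (1775 and 1881). DESeq2 called 1 member and 2208 genes for diet in males, and 328 genes in the interaction. With only the 2 groups compared, 1958 genes were called between the sexes on the high fat diet. With male high fat diet replicates 2 and 3 summed the interaction had 59 genes. Without them 3 members were called for diet in males, among 1182 genes against 1684 with all libraries, and 1 in the interaction, among 131 genes against 100.

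The following values changed sign, none of them called under either setting. Elovl2 between the sexes on the normal diet was 0.001 with RLE size factors, 0.0132 without the filter, 0.0035 with the libraries summed, 0.0017 with 2 groups, 0.0188 and 0.019 with limma, and 0.0014 with DESeq2. With limma Fads1 in females was 0.2268 and 0.2276, Fads3 in females 0.028 and 0.0469, and Fads6 in males 0.0371 and 0.0382. Without male high fat diet replicates 2 and 3, Elovl5 in males was -0.3793, Scd2 in males -0.0061, and Elovl1 between the sexes on the high fat diet -0.0562.

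Leaving out 1 library gave 0 to 2 members and 947 to 1647 genes for diet in females (947 without female high fat diet replicate 4), 0 to 1 members and 1113 to 1912 genes in males (1113 without male normal diet replicate 3), 51 to 176 genes in the interaction (51 without female normal diet replicate 2, 176 without male high fat diet replicate 1), 1 to 2 members and 1325 to 2488 genes between the sexes on the normal diet (1325 without female normal diet replicate 2), and 1974 to 3019 genes on the high fat diet (1974 without male high fat diet replicate 4). Ranges that crossed 0 were -0.0772 to 0.0552 for Fads1 in females, -0.1001 to 0.0446 for Fads6 and -0.0308 to 0.1628 for Scd2 in males, and -0.0071 to 0.4348 for Elovl5 and -0.2159 to 0.145 for Fads2 in the interaction. Between the sexes on the normal diet they were -0.087 to 0.1306 for Elovl2, -0.0296 to 0.1907 for Fads3 and -0.1496 to 0.013 for Scd2, and on the high fat diet -0.0252 to 0.1427 for Elovl1 and -0.046 to 0.086 for Fads6. The log2 ratio of Scd2 to Scd1 ranged from -0.3904 to 0.3026 for diet in females and from -0.0721 to 0.4741 between the sexes on the normal diet.

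Replicate numbers did not pair the libraries: same-numbered libraries of different groups had correlations of deviations from -0.159 to 0.18, and 5 of 16 were closest to their own number. With the replicate block 1, 0, 0, 3 and 4 members were called for diet in females, diet in males, the interaction, and sex on the normal and the high fat diet, among 1864, 1980, 101, 2685 and 3445 genes. The block made calls of Fads1 on the normal diet (adjusted p = 0.0465) and Elovl5 on the high fat diet (0.0369). The values on the fewest reads were those of Fads3 (35 to 130 expected counts per library) and of Elovl3 in female high fat diet replicate 1 (15).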
